A study of Mus musculus with 21 samples.

Results

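Twist1, Twist2, Tcf3, Tcf4, Tcf12, Id1, Id2, Id3 and Id4 were taken by symbol from both gene count tables, as 9 of the 24594 genes listed in each. They are the Twist genes, the E proteins and the Id genes, which belong to the basic helix-loop-helix (bHLH) family of transcription factors. All 9 genes passed the filter on low values (at least 1 CPM, the count scaled to the library total, in at least 2 libraries) in both tables, beside 13438 genes tested in the first table and 14383 in the second.

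The first table followed wild-type (WT) cranial neural crest cells by embryonic day (E). They came at E10.5 from pharyngeal arch 2 (PA2), and the series went on into the pinna, the external ear, which is built largely from this arch, sampled at E12.5 and E14.5. These cells came from Wnt1::Cre;ROSA-RFP embryos, in which a Cre driven by Wnt1 marks the neural crest lineage with a red fluorescent protein, and were collected by fluorescence sorting. The tissue was dissociated with trypsin at E10.5 and E12.5 and with papain at E14.5, so that enzyme and stage cannot be told apart in any comparison with E14.5. The region dissected changed as well, from PA2 to the forming pinna alone. Region and stage can thus not be told apart in any comparison with E10.5. The second table held PA2 and pharyngeal arch 3 (PA3), dissected at E10.5 from WT embryos and from HIRE1del/del embryos. HIRE1del is a germline CRISPR-Cas9 deletion of HIRE1, a distant cluster of enhancers that contacts Hoxa2, and the library titles name it delta-E3. No reporter and no sorting are stated for the dissected arches. All mice were of mixed C57Bl/6J and CD1 stock, and male and female embryos were pooled. Each of the 7 groups had 3 libraries, described as independent biological replicates. The first table was sequenced from a single end and the second from both ends, and values of the tables are set side by side here without a test.

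Hoxa2, which HIRE1 contacts, was read as a check of the genotype labels. It lay at 73.4, 77.2 and 84.2 CPM in PA2 of WT and at 4.75, 5.75 and 7.10 CPM in PA2 of HIRE1del/del embryos, and at 56.0 to 65.1 against 22.1 to 25.6 CPM in PA3. Library totals were 25.81 to 49.06 M counts in the sorted series and 25.8 to 32.21 M in the arches. In the sorted libraries the summed blood markers stayed at or below 11.6 CPM, whereas in the arches, also labelled cranial neural crest cells, they reached 912 to 13805 CPM and all 5 epithelial and all 5 endothelial markers were present. The arches are therefore described as whole tissue, in which fewer cells of a type and less RNA per cell cannot be told apart.

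bHLH factors bind DNA as dimers at a short core motif, the E-box. E proteins (Tcf3, Tcf4 and Tcf12) are broadly made and pair with tissue-restricted members such as Twist1, Twist2 and Hand2, while Twist factors can also pair with each other. Id proteins have the dimerisation domain but no DNA-binding region, and so take E proteins away from DNA. Twist1 is required for the mesenchymal character of cranial neural crest and for patency of the skull sutures, and Id genes are classic targets of BMP signalling through SMADs.

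By GENCODE M21 on GRCm38, Twist1 lies at chr12:33957671-33959829 on the plus strand and Twist2 at chr1:91801461-91848028 on the plus strand. Tcf3 lies at chr10:80409514-80433647 on the minus strand and Tcf12 at chr9:71842688-72111871 on the minus strand. Id1 lies at chr2:152736251-152737410 on the plus strand, Id2 at chr12:25093799-25097140 on the minus strand, Id3 at chr4:136143497-136145755 on the plus strand and Id4 at chr13:48261228-48266026 on the plus strand. The library kit did not mark strand, so reads of a gene and of an antisense partner cannot be told apart. This bears on Twist2, of whose 3174 GENCODE exon bases 1477 (46.5%) also lie in exons of the antisense gene Gm29100. The deposited counts used only 1329 exonic bases for Twist2, and the overlap with those was not worked out. To a small degree it bears on Id4, which shares 82 bases (2.13%) with A330033J07Rik and 171 (4.44%) with Gm49291.

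The promoters of both Twist genes, which peaked together at E12.5, of Tcf3, which fell at each stage, and of Id4, which differed most between the arches, are shown for orientation. Each is the 250 bases before the RefSeq start of the gene (GRCm38.p6), read 5′ to 3′ on the strand of the gene. Capitals mark CANNTG, the E-box core, and GGCGCC, a GC-rich element bound by SMADs downstream of BMP. Both motifs are palindromic, so that a match holds on both strands, and matches of the 2 motifs could share a base but did not in these windows. The windows are chr12:33957421-33957670 (plus strand) for Twist1, chr1:91801211-91801460 (plus) for Twist2, chr10:80433636-80433885 (minus) for Tcf3 and chr13:48260866-48261115 (plus) for Id4. All 250 bases of the Twist2 window and 12 of the Tcf3 window also lie in annotated exons.
Twist1: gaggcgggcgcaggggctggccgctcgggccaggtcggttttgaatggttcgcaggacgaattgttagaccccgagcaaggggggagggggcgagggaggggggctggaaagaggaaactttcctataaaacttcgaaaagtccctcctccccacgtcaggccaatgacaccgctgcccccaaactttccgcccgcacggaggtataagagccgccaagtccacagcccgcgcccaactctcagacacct
Twist2: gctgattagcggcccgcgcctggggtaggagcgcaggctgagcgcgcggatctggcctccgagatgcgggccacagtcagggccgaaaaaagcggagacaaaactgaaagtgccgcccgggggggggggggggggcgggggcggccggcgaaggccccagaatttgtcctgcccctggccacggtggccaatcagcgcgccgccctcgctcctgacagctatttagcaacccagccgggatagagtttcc
Tcf3: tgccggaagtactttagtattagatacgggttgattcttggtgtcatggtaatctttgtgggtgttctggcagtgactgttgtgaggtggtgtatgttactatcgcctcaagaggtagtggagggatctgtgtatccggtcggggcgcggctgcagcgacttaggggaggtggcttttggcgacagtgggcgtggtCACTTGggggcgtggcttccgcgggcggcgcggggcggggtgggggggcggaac
Id4: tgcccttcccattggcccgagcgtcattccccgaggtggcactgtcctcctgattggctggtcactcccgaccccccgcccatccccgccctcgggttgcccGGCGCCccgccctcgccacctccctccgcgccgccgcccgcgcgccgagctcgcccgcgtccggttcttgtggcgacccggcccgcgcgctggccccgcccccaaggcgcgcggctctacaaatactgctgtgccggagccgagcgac

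RefSeq promoters were matched for 7 of the 9 genes, all but Tcf4 and Id1. CANNTG occurred once each in the windows of Tcf3, Tcf12 and Id2 and not in those of Twist1, Twist2, Id3 and Id4, against 66% of all 27025 promoters with at least 1 match. GGCGCC occurred once each in Id2 and Id4, against 9.54% of all promoters. These are matches of letters and say nothing of binding.

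Sorted cells of the pinna at E12.5 had more Twist1, Twist2, Tcf4, Tcf12, Id1, Id2 and Id4 than those of PA2 at E10.5, and less Tcf3. Region and stage both differ here. With edgeR's quasi-likelihood test and an adjusted p under 0.05, 7 of the 9 genes were higher and 1 was lower, and Id3 was not called. The background was high, since 68.8% of all genes tested were called in this comparison (35% higher and 33.7% lower). Only Twist1 and Tcf4 changed by a log2 fold change of at least 1, as did 21.6% of all genes. The median log2 fold change was 0.65 over the 9 genes and 0.01 over all genes tested.

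Between E12.5 and E14.5 the genes parted: Tcf4, Tcf12, Id2 and Id4 rose further, Twist1, Twist2 and Tcf3 fell, and Id1 and Id3 were not called. These 7 calls of 9 stand against 65.7% of all genes (32.6% higher and 33.1% lower). None of the 9 reached a log2 fold change of 1, as 19.7% of all genes did, and their median was 0.07 against -0.01 over all genes. Over the whole interval from E10.5 to E14.5, 6 genes were higher and 2 lower, against 82% of all genes called (42% higher and 40% lower). Tcf3, Tcf4, Tcf12 and Id4 passed the limit of 1 on the log2 scale, as 39.3% of all genes did. The median over this interval was 0.84 for the 9 genes and 0.02 for all genes.

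**Figure D1:**
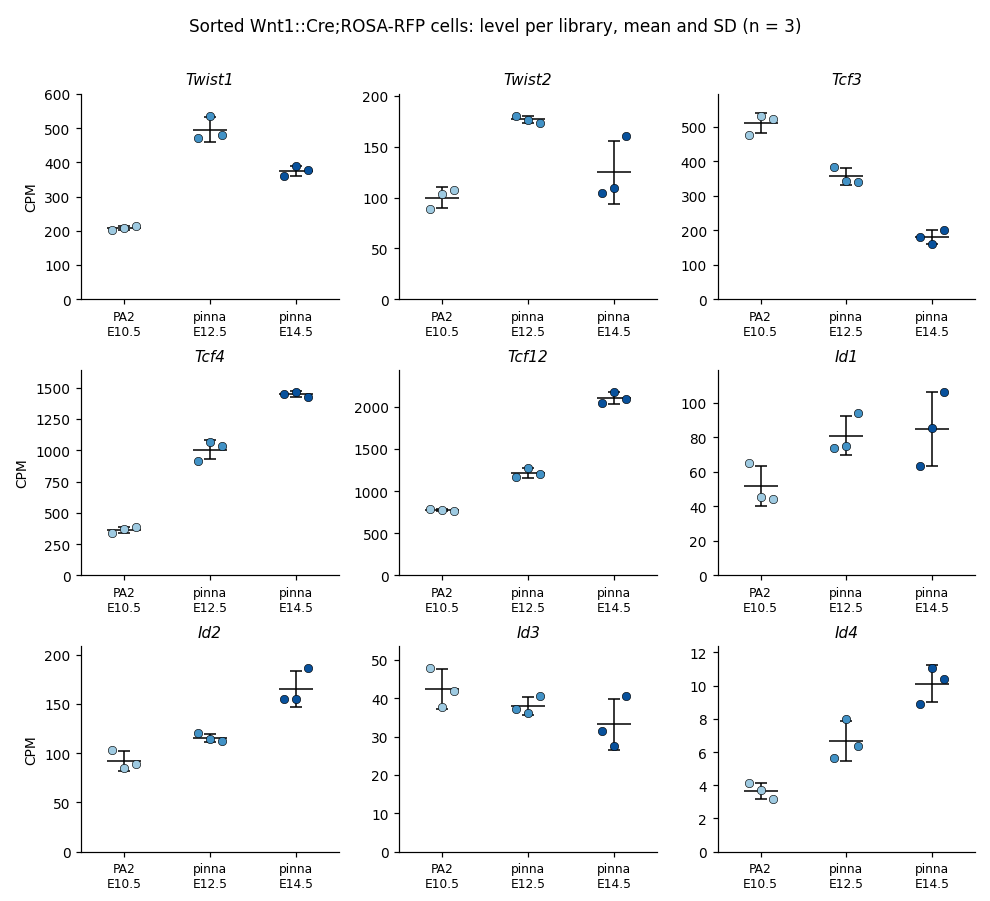
Level of each gene (CPM, vertical axis) in the sorted cells of PA2 at E10.5 and of the pinna at E12.5 and E14.5, with 1 point per library, the mean as a long line and the SD as a bar (n = 3). Twist1 and Twist2 are highest at E12.5, Tcf3 steps down and Tcf4 and Tcf12 step up at each stage, and Id3 overlaps throughout.

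Twist1 lay at 202, 209 and 215 CPM at E10.5, at 470, 537 and 478 at E12.5 and at 359, 388 and 379 at E14.5. The 3 stages did not overlap, with the peak at E12.5. The rise had a log2 fold change of 1.24 (SE 0.06; 2.37-fold; edgeR adjusted p = 3.43e-08) and the later fall one of -0.40 (SE 0.06; adjusted p = 0.00021). At E14.5 Twist1 was still above E10.5, by 0.85 on the log2 scale.

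Twist2, the close relative of Twist1 that restrains dermal and bone differentiation, lay at 88.8, 104 and 108 CPM at E10.5, at 181, 177 and 174 at E12.5 and at 105, 109 and 161 at E14.5. It peaked at E12.5 too, and its 3 libraries of E14.5 were spread widely, 2 of them within or next to the range of E10.5 and replicate 3 far above. The log2 fold change was 0.82 (SE 0.14; edgeR adjusted p = 0.000312) to E12.5 and -0.50 (SE 0.14; adjusted p = 0.00819) from there to E14.5. Between E10.5 and E14.5 it was 0.32, with an edgeR adjusted p of 0.0523. This value lay at the threshold and turned on single libraries of E14.5: it was called without replicate 1 (0.44, adjusted p = 0.014) or replicate 2 (0.41, adjusted p = 0.0274) and was 0.10 without replicate 3. It was also called with DESeq2 (adjusted p = 0.0305), with 1 CPM required in every library (0.0228) and with a replicate block (0.0393). Replicate 3 of E14.5 was also the highest of its group for Tcf3, Id1, Id2 and Id3.

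Tcf3, which encodes the E proteins E12 and E47, fell at each step, from 477, 532 and 521 CPM through 383, 343 and 340 to 181, 161 and 201. No library of a later stage reached the range of an earlier one. The log2 fold changes were -0.52 (SE 0.08; edgeR adjusted p = 0.000214) and -0.97 (SE 0.09; adjusted p = 2.24e-06).

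Tcf4, which encodes the E protein E2-2, went the other way, from 339, 370 and 383 CPM through 917, 1065 and 1035 to 1453, 1467 and 1423. Its first step, 1.47 on the log2 scale (SE 0.07; 2.76-fold; edgeR adjusted p = 1.89e-08), was the largest of the 9 genes, and the second was 0.53 (SE 0.07; adjusted p = 4.85e-05). Tcf12, which encodes the E protein HEB, rose from 788, 781 and 759 CPM through 1161, 1276 and 1201 to 2040, 2175 and 2086. Its steps were 0.64 (SE 0.06; adjusted p = 1.44e-06) and 0.79 (SE 0.06; adjusted p = 3.79e-07). For both genes the 3 stages were fully apart, and from E10.5 to E14.5 they rose 3.98-fold and 2.71-fold.

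Gene length moved with the direction of change. Tcf4 and Tcf12 have 18911 and 11259 exonic bases in the deposited table and Tcf3 has 4039, while the other members have 1160 to 3849. Among the 1143 tested genes with 10 kb or more, 52.4% were higher and 20% lower at E12.5 than at E10.5, with a median log2 fold change of 0.27. Among the 1791 genes under 2 kb, 23.4% were higher and 39.5% lower, with a median of -0.16. The part of length in the rises of Tcf4 and Tcf12 was not tested.

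The make-up of the E protein transcripts turned over accordingly. On the scale of CPM per kb of exonic length, Tcf3 held 58.8% ± 1.3 of the summed E protein level at E10.5, 35.4% ± 2.7 at E12.5 and 14.6% ± 1.6 at E14.5 (mean and SD, n = 3). Tcf12 held 32.2%, 43.3% and 60.6%, and Tcf4 8.97%, 21.4% and 24.9%. The summed level was 214, 249 and 308 CPM per kb. Per kb, the leading E protein by transcript was thus Tcf3 at E10.5 and Tcf12 at both pinna stages. In plain CPM, in which a long gene weighs more, Tcf12 led at every stage (47.1%, 47.1% and 56.3%), Tcf3 held 30.9%, 13.8% and 4.86%, and the sum was 1649.8, 2574 and 3729 CPM. The decline of the Tcf3 share at each stage held on both scales, while the gene in the lead at E10.5 did not.

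**Figure D2:**
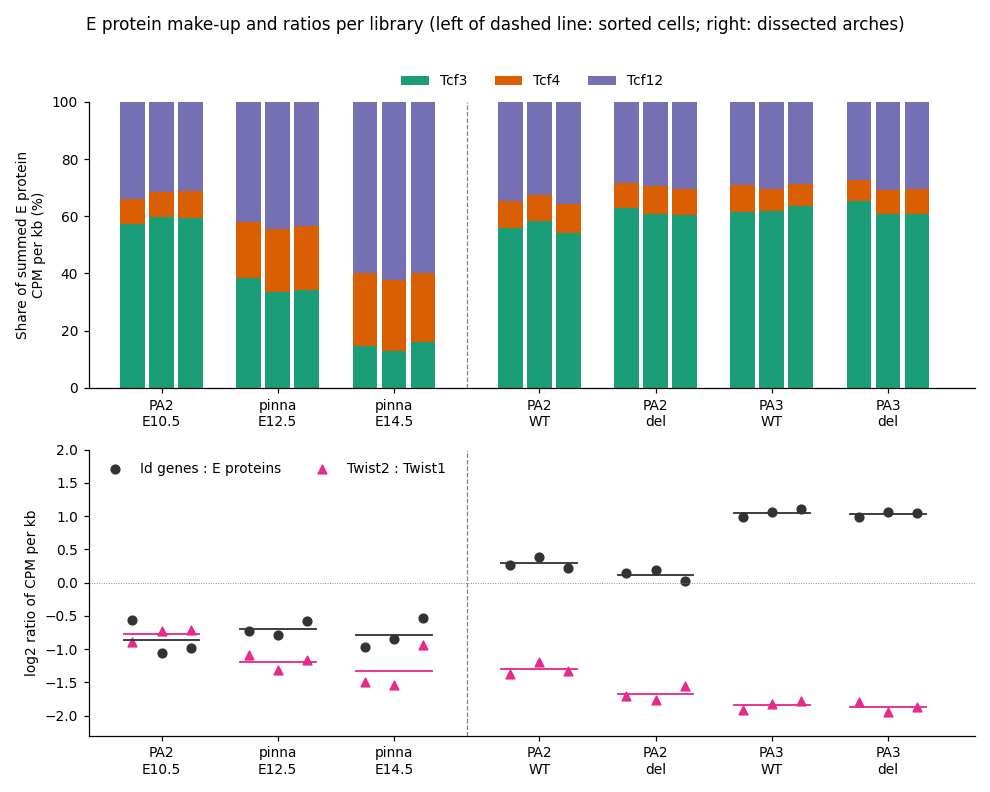
Upper panel, share of Tcf3, Tcf4 and Tcf12 in the summed E protein level (percent of CPM per kb, 1 bar per library); lower panel, log2 ratio of the summed Id to the summed E protein level and of Twist2 to Twist1 (CPM per kb, 1 point per library, line at the group mean), with sorted cells left and dissected arches right of the dashed line. The Tcf3 share drops from 58.8% to 14.6% over the sorted stages and stays between 54.1% and 65.3% in the arches, and the Id to E ratio is highest in PA3.

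Of the Id genes, Id2 and Id4 rose at each step. Id2 lay at 104, 84.6 and 88.9 CPM at E10.5, at 120, 114 and 112 at E12.5 and at 155, 155 and 186 at E14.5, with no overlap between stages (log2 fold changes of 0.32, SE 0.09, edgeR adjusted p = 0.00844, and 0.52, SE 0.09, adjusted p = 0.000452). Id4 was scarce, at 4.11, 3.74 and 3.17 CPM, then 5.64, 8.0 and 6.39, then 8.90, 11.1 and 10.4. Its libraries were also apart at each step (0.86, SE 0.17, edgeR adjusted p = 0.000773, and 0.60, SE 0.16, adjusted p = 0.00602). Even so, Id4 rested on 97 to 526 counts per library, so that its depth was the lowest of the 9 genes.

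Id1 rose once, from 64.9, 45.6 and 44.4 CPM to 73.6, 74.9 and 93.8 (0.65 on the log2 scale with SE 0.19; adjusted p = 0.0106 in edgeR). It then spread over 63.2, 85.1 and 106 CPM at E14.5, across the whole range of E12.5 (0.07, 95% interval -0.34 to 0.48). Id3 overlapped between all stages, at 47.9, 37.6 and 41.8 CPM, then 37.2, 36.3 and 40.7, then 31.5, 27.6 and 40.6. From E12.5 to E14.5 its change was -0.20 and not called, but without replicate 3 of E14.5 it was -0.36 and called (edgeR adjusted p = 0.0139), as it was with total counts as the only scaling (-0.32, adjusted p = 0.0437). Its fall over the whole interval was called (-0.35, SE 0.13; edgeR adjusted p = 0.0271), but the call was lost without replicate 1 of E10.5 (adjusted p = 0.106), replicate 1 of E14.5 (0.0836) or replicate 2 of E14.5 (0.111), and with a filter of 1 CPM in every library (0.0602).

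Set against each other, the Id and E protein groups gave a balance that depended on the scale in the sorted cells. The log2 ratio of the summed Id to the summed E protein level, per kb, was -0.86 ± 0.26 at E10.5, -0.70 ± 0.11 at E12.5 and -0.79 ± 0.22 at E14.5 (SD, n = 3), and the stages overlapped. In plain CPM it was -3.29 to -2.86 at E10.5, above the -3.52 to -3.35 of E12.5 and the -3.83 to -3.43 of E14.5, which overlapped with each other. The difference between E12.5 and E10.5 thus took opposite signs, 0.17 per kb and -0.29 in plain CPM, so no direction can be read from it. The ratio of Twist1 to Twist2 per kb was 1.71 ± 0.13 at E10.5 and 2.29 ± 0.18 at E12.5, without overlap, and 2.54 ± 0.54 at E14.5, where it overlapped with E12.5.

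Ranked per kb, Twist1 led the 9 genes at every sorted stage, at 128, 304 and 231 CPM per kb. That put it at the 98.27, 99.69 and 99.5 percentile of the genes tested. At E10.5 the order was Twist1, Tcf3, Twist2, Tcf12, Id2, Id1, Id3, Tcf4 and Id4, in which Twist1 and Tcf3, Twist2 and Tcf12, and Id2 and Id1 overlapped. At E12.5 it was Twist1, Twist2, Tcf12, Tcf3, Id1, Id2, Tcf4, Id3 and Id4, and no neighbours overlapped. At E14.5 Tcf12 stood second (187 CPM per kb), Tcf3 had gone to the seventh place (44.8), and Twist2 overlapped with Id2 and Tcf4 with Id1. Id4 was last at each stage, at 0.955, 1.73 and 2.63 CPM per kb.

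Marker levels also differed between the stages in the sorted cells. The summed crest mesenchyme markers (6 of 6 genes above 1 CPM) lay at 2258 to 2888 CPM at E10.5, 6928 to 7235 at E12.5 and 15919 to 19404 at E14.5. Col1a2, a fibrillar collagen, made up most of that gain (means of 765, 3581 and 13665 CPM), whereas between E12.5 and E14.5 Prrx1 went from 498 to 319.6 CPM and Dlx5 from 60.9 to 29.99. The 4 melanocyte markers summed to 5.89 to 7.76, 29.1 to 41.3 and 324 to 368 CPM, and each had its highest mean at E14.5. The endothelial markers summed to 6.79 to 8.99, 19.0 to 26.2 and 108 to 173 CPM, nearly all of the gain being in Kdr (means of 3.26, 18.0 and 141 CPM). The other 4 of them, Pecam1, Cdh5, Tek and Emcn, stayed at means of 2.89 CPM or less at every stage. Immediate-early genes, which respond to handling and dissociation, summed to 256 to 309, 596 to 930 and 1861 to 2130 CPM. The part of region, of cell make-up and of handling in the changes of the 9 genes was not tested.

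Other tissue-restricted partners of E proteins were compared over the same stages, where PA2 at E10.5 and the pinna differ in region too. Of 8 listed mesenchymal genes 5 were tested. All 5 were lower at E12.5 than at E10.5, against 33.7% of all genes (median log2 fold change -2.68, with Hand1 at its bound too). Hand2, which patterns the lower parts of the arches, went from a mean of 130 to 1.55 CPM (-6.37, SE 0.19; edgeR adjusted p = 7.16e-10). Hand1 lay at a mean of 3.61 CPM at E10.5 and had no count in any pinna library, which puts it at least 33.4-fold lower at E12.5 and at least 58.1-fold lower at E14.5 against 3 counts per library. From E12.5 to E14.5 Hand2 rose a little to 2.68 CPM (0.78), whereas Scx, a tendon factor, fell from a mean of 6.31 to 3.45 CPM. Tcf15, a factor of somites, fell from 0.427 to 0.0220 CPM, both means below 1 CPM. Of the 10 neurogenic partners only Bhlhe22 passed the filter, from 0.0229 and 0.18 to 3.58 CPM, and no myogenic (4 listed) or blood (3 listed) partner did.

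Genes around the pathway moved in both directions. In the list of BMP-SMAD response genes and antagonists, 7 of 8 were tested, and at E12.5 2 were higher (Grem1, a BMP antagonist, from 7.79 to 215 CPM, and Msx1) and 2 lower (Msx2, from 11.3 to 0.968 CPM, and Bambi, a decoy receptor). All 7 then fell to E14.5 (median -0.63), Smad6 and Smad7 among them, while Id2 and Id4 rose and Id1 was not called. Of 6 factors of epithelial-mesenchymal transition, 2 were higher and 2 lower at E12.5 (Snai2 by 1.39, Foxc2 by -3.99). At E14.5 4 were higher and 2 lower than at E12.5, with Zeb2 up from 65.4 to 353 CPM. Of 9 tested suture genes linked to Twist1, 5 fell at E12.5, led by Jag1 (-0.92), and none rose. Between E12.5 and E14.5 3 of them rose, led by Fgfr1 (0.63), and 4 fell, led by Epha4 (-1.23). Of 2 tested cell cycle inhibitors, Cdkn1c rose to E12.5 (1.98) and Cdkn2b fell (from 1.66 to 0.0218 CPM).

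In the dissected arches at E10.5, PA3 had less Twist1, Twist2, Tcf4 and Tcf12 and more Id1, Id2, Id3 and Id4 than PA2, in both genotypes. In WT 8 of the 9 genes were called (4 higher and 4 lower in PA3), against 36.5% of all genes tested, and in HIRE1del/del embryos all 9 (4 higher and 5 lower), against 33.4%. The median over the 9 genes was -0.07 in WT and -0.28 in HIRE1del/del embryos, beside -0.00 over all genes in both, but their median size was 0.48 in both, beside 0.19 and 0.18 over all genes. The E10.5 libraries of PA2 and PA3 with the same number deviated together weakly. A shared embryo pool was assumed from this and is not established. A term for this pool changed no call of the 9 genes.

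**Figure D3:**
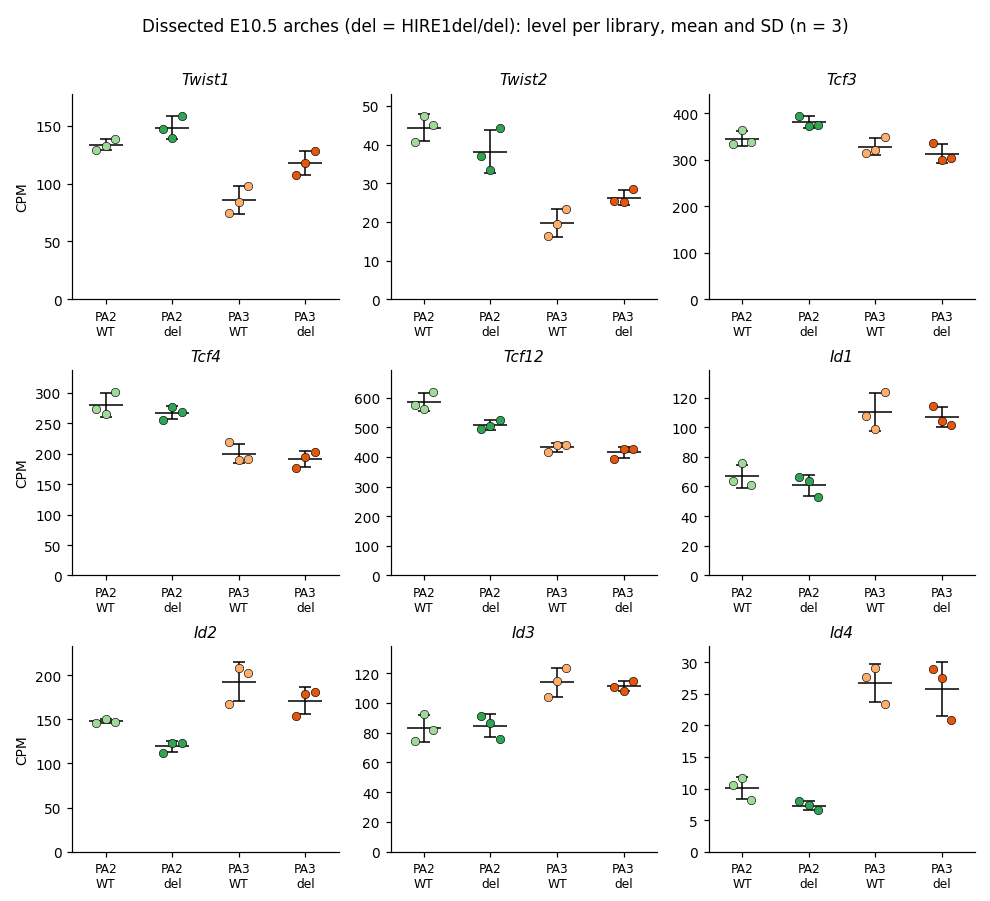
Level of each gene (CPM, vertical axis) in PA2 and PA3 dissected at E10.5 from WT and HIRE1del/del (del) embryos, with 1 point per library, the mean as a long line and the SD as a bar (n = 3). All 4 Id genes are higher in PA3 and the Twist genes in PA2, and Id4 shows the widest gap.

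Twist1 lay at 129, 133 and 139 CPM in PA2 of WT and at 74.9, 84.2 and 98.2 in PA3. The arches were apart, with a log2 difference of -0.64 for PA3 against PA2 (SE 0.09; adjusted p = 0.000136 in edgeR). In the mutant the values were 147, 139 and 159 CPM in PA2 and 108, 118 and 128 in PA3, again apart but closer (-0.33, SE 0.09; edgeR adjusted p = 0.0114). Without replicate 1 of PA3 of HIRE1del/del the adjusted p was 0.0554.

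Twist2 differed more, at 40.7, 47.5 and 45.0 CPM in PA2 and 16.2, 19.5 and 23.5 in PA3 of WT (-1.17 on the log2 scale, SE 0.13; adjusted p = 1.94e-05 in edgeR). The mutant arches had 37.0, 33.3 and 44.2 CPM in PA2 and 25.3, 25.1 and 28.5 in PA3 (-0.54, SE 0.13; adjusted p = 0.00559). Neither pair of arches overlapped. Twist1 was 2.47 ± 0.16 times as abundant as Twist2 per kb in PA2 of WT and 3.57 ± 0.18 times in PA3, without overlap.

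Of the E proteins, Tcf4 and Tcf12 were lower in PA3. Tcf4 lay at 265 to 302 CPM in PA2 and 190 to 219 in PA3 of WT (-0.48, SE 0.07; edgeR adjusted p = 0.00017), and Tcf12 at 562 to 620 and 415 to 441 (-0.44, SE 0.05; adjusted p = 3.49e-05). Their differences in HIRE1del/del embryos were -0.48 and -0.29. Tcf3 overlapped between the arches of WT, at 334 to 363 and 314 to 348 CPM (-0.07, 95% interval -0.20 to 0.05), and was lower in PA3 of HIRE1del/del embryos (-0.28, SE 0.06; adjusted p = 0.00251). Per kb, Tcf3 made up the largest share of E protein transcripts in every arch library, 54.1% to 65.3%. In plain CPM Tcf12 did, with 43.1% to 49.2% against 26.8% to 37.1% for Tcf3.

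Every Id gene was higher in PA3. Id4 was at 10.6, 11.6 and 8.16 CPM in PA2 and at 27.7, 29.1 and 23.4 in PA3 of WT, and at 7.97, 7.41 and 6.54 against 29.0, 27.4 and 20.9 in HIRE1del/del embryos. These gaps, 1.40 (SE 0.15; 2.65-fold; edgeR adjusted p = 1.44e-05) and 1.82 (SE 0.15; 3.53-fold; adjusted p = 2.46e-06) on the log2 scale, were the largest of the 9 genes. Id1 rose from 63.6, 75.9 and 60.9 CPM in PA2 to 108, 98.5 and 124 in PA3 of WT (0.72, SE 0.10; adjusted p = 0.000178). For Id2 and Id3 the differences were 0.38 and 0.46 in WT and 0.52 and 0.40 in HIRE1del/del embryos, with no overlap between arches in either genotype.

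The balance of Id to E protein transcripts differed by arch. The log2 ratio of summed Id to summed E protein level per kb was 0.29 ± 0.09 in PA2 and 1.05 ± 0.06 in PA3 of WT (SD, n = 3), without overlap, which is 1.22 against 2.07 as a plain ratio. It was 0.12 ± 0.08 and 1.03 ± 0.04 in HIRE1del/del embryos. In plain CPM the ratio of WT was 0.254 in PA2 and 0.462 in PA3. The direction between arches thus held on both scales, while the group with the higher sum did not. Id2, Id1 and Tcf3 led the rank per kb in PA3 of WT (97.8, 94.8 and 81.1 CPM per kb) and overlapped with each other, whereas in PA2 Tcf3 and Twist1 led (85.4 and 82.1) and overlapped. In HIRE1del/del embryos Tcf3 and Twist1 led in PA2 as well, and the 5 genes from Id1 to Id3 at the head of PA3 overlapped each with the next. Id4 was last in all 4 groups, and Tcf4 was last but 1.

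Cell types other than crest differed between the arches too. In WT the summed blood markers (5 of 5 present) lay at 912 to 1359 CPM in PA2 and at 7337 to 13512 in PA3, epithelial markers (5 of 5) at 183 to 202 and 406 to 524, and endothelial markers (5 of 5) at 238 to 249 and 277 to 294. Neuronal markers lay at 75.9 to 78.5 CPM (3 of 5 above 1 CPM) and 142 to 194 (5 of 5). Crest mesenchyme markers summed to 1282 to 1428 and 1131 to 1379, but the genes in this sum ran in both directions. Pdgfra (means of 538 and 342 CPM) and Prrx1 (275 and 209) were lower in PA3. So was Dlx5, at 30.3 to 33.0 and 9.43 to 12.7 CPM. Col1a2 (means of 302 and 457 CPM) and Prrx2 (40.6 and 63.8) were higher in PA3, and Pdgfrb overlapped. Immediate-early genes were at 258 to 275 CPM in PA2 and 146 to 184 in PA3. Gene length moved with the arch difference too. In WT, 19.6% of tested genes under 2 kb were higher and 6.53% lower in PA3. Among genes with 10 kb or more, 19.9% were higher and 26.6% lower. Id1, Id2 and Id3 (under 2 kb) and Tcf4 and Tcf12 (over 10 kb) ran with this trend. Twist1 and Twist2, also under 2 kb, ran against it. The part of cell make-up and of length in the arch differences of the 9 genes was not tested.

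Tissue-restricted partners of other lineages were higher in PA3 beside these markers. Of 10 neurogenic partners 7 were tested, and all 7 (Neurog1, Neurog2, Neurod1, Neurod4, Nhlh1, Nhlh2 and Bhlhe22) were higher in PA3 of both genotypes. Neurog2, a determination factor of sensory neurons, lay at a mean of 0.239 CPM in PA2 and 18.6 in PA3 of WT. The blood partners Tal1 and Lyl1 were higher as well, by 2.68 and 2.18 in WT. Of 7 tested mesenchymal partners, Hand1 was higher in PA3 (1.95) and Msc lower (-1.85) in WT, both with the same call in HIRE1del/del embryos, where Scx was also higher. Of 3 tested myogenic partners only Myf5 was called, lower in PA3 of WT (-0.78). Hand2 lay at means of 65.7 and 61.7 CPM in PA2 and PA3 and was not called.

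The other lists also held genes called between the arches. Of all genes tested, 36.5% were called in WT (52.4% of these higher in PA3) and 33.4% in HIRE1del/del embryos (55.9% of these higher). Of 7 tested BMP-SMAD genes, 5 were higher and 0 lower in PA3 of WT, with a list median of 0.35. They were Smad6 (by 0.85), Smad7 (0.35), Smad9 (1.30), Msx2 (0.74) and Bambi (0.35). In HIRE1del/del embryos 6 were higher and 0 lower (Smad6, Smad7, Smad9, Msx1, Msx2 and Grem1). Of 6 factors of epithelial-mesenchymal transition, Snai2, Zeb1 and Prrx1 were lower in PA3 of WT (-0.55, -0.44 and -0.39). Zeb1 and Prrx1 were lower in HIRE1del/del embryos, and 0 were higher in either genotype. Of the 9 suture genes Fgfr1, Fgfr2, Efna2 and Epha4 were lower and Jag1 was higher in PA3 of WT. In HIRE1del/del embryos Fgfr1, Fgfr2, Efna2, Efna4 and Alx4 were lower and Jag1 was higher. The cell cycle inhibitors Cdkn1a, Cdkn1c and Cdkn2b were higher in PA3 of WT, and Cdkn1a and Cdkn2b in HIRE1del/del embryos. A link between these list genes and the Id and Twist genes, and the part of cell make-up in them, was not tested.

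Loss of HIRE1 called none of the 9 genes in either arch with edgeR's quasi-likelihood test. The background of this comparison was low, 63 genes or 0.438% of those tested in PA2 and 31 genes or 0.216% in PA3. At an unadjusted p under 0.05, 4 of the 9 genes passed in PA2 (1233 of all genes) and 2 in PA3 (1400 of all genes). DESeq2 called Tcf12 and Id2 in PA2, both lower, and Twist1 in PA3, higher, among 162 genes of all tested in PA2 and 94 in PA3. With a replicate block, edgeR called Id2 and Id4 in PA2 and Twist1 in PA3, among 105 and 54 genes. The median log2 fold change of the 9 genes was -0.13 in PA2 and -0.05 in PA3, beside -0.01 and -0.00 over all genes.

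Twist1 in PA3 came closest to a call. Its 3 libraries of HIRE1del/del embryos, at 108, 118 and 128 CPM, all lay above the 74.9, 84.2 and 98.2 of WT. The log2 fold change was 0.46 (95% interval 0.26 to 0.65; edgeR adjusted p = 0.0693). It was called with no filter on low counts (adjusted p = 0.0307), with DESeq2 (0.000473), with a replicate block (0.00517) and without replicate 3 of WT (0.0258). In PA2 the genotypes were also apart, at 129 to 139 and 139 to 159 CPM, by 0.15 on the log2 scale (95% interval -0.04 to 0.34; edgeR adjusted p = 0.692). Twist2 in PA3 had 16.2 to 23.5 and 25.1 to 28.5 CPM, apart as well (0.41, 95% interval 0.13 to 0.69; adjusted p = 0.333), while in PA2 it overlapped (-0.22, 95% interval -0.49 to 0.05).

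In PA2 the values of Id2 were 146, 150 and 147 CPM in WT and 112, 123 and 123 in HIRE1del/del embryos, apart by -0.31 on the log2 scale (95% interval -0.48 to -0.13; edgeR adjusted p = 0.202). Id4 was apart in the same direction, at 8.16 to 11.6 and 6.54 to 7.97 CPM (-0.47, 95% interval -0.81 to -0.13; adjusted p = 0.407). So was Tcf12, at 562 to 620 and 493 to 525 CPM (-0.21, 95% interval -0.32 to -0.10; adjusted p = 0.165), and Tcf3 was apart upwards, at 334 to 363 and 372 to 395 CPM (0.14; adjusted p = 0.517). Tcf4, Id1 and Id3 overlapped. Thus 5 of the 9 genes, Twist1 included, did not overlap between genotypes in PA2, against 13.2% of all genes tested, and 2 of the 9 in PA3, against 14.3%. Summed neuronal markers lay at 75.9 to 78.5 CPM in PA2 of WT and 56.5 to 58.9 in PA2 of HIRE1del/del embryos. The largest falls were in Isl1 (means of 50.6 and 39.8 CPM) and Tubb3 (18.7 and 12.1), while Elavl3 stayed at 0.369 and 0.367. Summed muscle markers were apart too, at 25.5 to 26.8 and 21.8 to 23.8 CPM, and the other marker sets overlapped. The part of these markers in the values of the 9 genes was not tested.

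**Figure D4:**
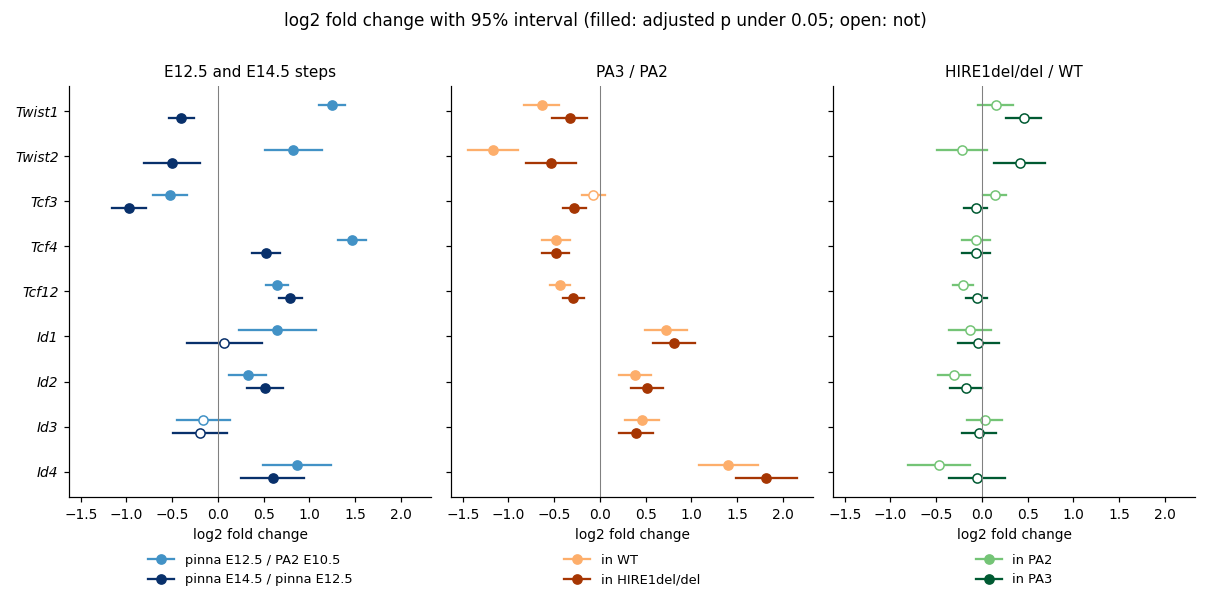
log2 fold change of each gene with its 95% interval for the steps between stages, for PA3 against PA2 in each genotype and for HIRE1del/del against WT in each arch; filled points passed an edgeR adjusted p under 0.05 and open points did not. No point of the genotype comparisons is filled, the farthest from 0 being Id4 in PA2 (-0.47) and Twist1 in PA3 (0.46).

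Whether the loss of HIRE1 acted differently in the arches was tested as the effect in PA2 minus that in PA3. None of the 9 genes was called, against 7 genes or 0.0487% of all tested, and with a term for the assumed embryo pool 0 of the 9 and 26 of all genes. At an unadjusted p under 0.05, 3 of the 9 genes passed (794 of all genes), and DESeq2 called 0 of the 9. The difference was -0.63 for Twist2 (95% interval -1.02 to -0.24; edgeR adjusted p = 0.788), -0.31 for Twist1 (-0.58 to -0.03; 0.887) and 0.21 for Tcf3 (0.03 to 0.38; 0.887). Because the difference was not called, the smaller arch gap of the Twist genes in HIRE1del/del embryos is not shown to differ from that in WT. The genotype and arch comparisons also share libraries, so that a low value of PA3 of WT raises the one and widens the other.

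The ratio of Twist1 to Twist2 per kb was 2.28 to 2.60 in PA2 of WT and 2.94 to 3.41 in PA2 of HIRE1del/del embryos, without overlap, and 3.42 to 3.77 and 3.47 to 3.83 in PA3, with overlap. The log2 ratio of Id to E protein level per kb was 0.22 to 0.39 in PA2 of WT and 0.03 to 0.19 in PA2 of HIRE1del/del embryos, also apart, and overlapped in PA3. In plain CPM it overlapped in PA2 as well, at -2.08 to -1.85 and -2.18 to -2.04. Among the listed pathway genes, only Alx4, a suture gene linked to Twist1 and a homeobox factor of craniofacial mesenchyme, was called, in PA2 (3.39-fold higher, at a mean of 35.5 CPM; log2 1.76, SE 0.20; adjusted p = 0.000538 in edgeR). No gene of the bHLH, BMP, epithelial-mesenchymal transition and cell cycle lists was called in either arch.

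Set beside each other without a test, PA2 at E10.5 gave other proportions as sorted crest and as dissected tissue. Twist1, Twist2, Tcf3, Tcf4 and Tcf12 had means of 209, 99.98, 510, 364 and 776 CPM in the sorted cells and 134, 44.4, 345, 280 and 586 CPM in the WT arch. Id1, Id2, Id3 and Id4 had 51.6, 92.4, 42.5 and 3.68 CPM sorted and 66.8, 148, 82.9 and 10.1 CPM in the arch. The 5 Twist and E protein genes were thus lower and the 4 Id genes higher in the dissected arch. Sorting, sequencing layout and cell make-up differ between the series, and these influences cannot be told apart.

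The 9 genes were also compared by their pattern over all 21 libraries, as Pearson's r of log2 CPM centred within each table. These libraries share the same 7 groups, so the values describe how the group differences run. Tcf4 and Tcf12 were most alike (r = 0.94), followed by Id1 and Id4 (0.88), Id2 and Id4 (0.83) and Twist1 and Twist2 (0.82). Tcf3 ran against Tcf12 (-0.86), Id2 (-0.79) and Tcf4 (-0.78). The opposition to Tcf4 and Tcf12 was that of the stages and did not hold between the arches. In HIRE1del/del embryos Tcf3, Tcf4 and Tcf12 were all lower in PA3 than in PA2 (log2 fold changes of -0.28, -0.48 and -0.29).

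Among the 12862 genes compared, which passed the filter in both tables, the 2 most like each member were as follows. Twist1 was closest to Edaradd (r = 0.961) and Sema3a (0.951), and Twist2 to Mn1 (0.929) and Sertad4 (0.908). Tcf3 was closest to Dcaf15 (0.992) and Smarcb1 (0.990), Tcf4 to Fam120b (0.992) and Tet2 (0.986), and Tcf12 to Zscan26 (0.987) and Rictor (0.976). Such likeness was common for the E proteins, with 1270, 599 and 598 genes above 0.9. Id1 was closest to Atp1b2 (0.908) and Rhob (0.905), Id2 to Trim56 (0.934) and Col9a3 (0.929), and Id4 to Tlcd4 (0.964) and Cpeb4 (0.960). Id3 had no gene above 0.9, and the closest were Smad6 (0.893) and Smad7 (0.876), both inhibitors within the BMP and TGF-beta pathways.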

How the data were processed

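The authors aligned reads across splice sites to GRCm38/mm10 with QuasR and counted alignments over UCSC known genes. They deposited raw counts, 1 column per library. Counting used the opposite orientation although the kit was unstranded. The submitters' processing notes name bcl2fastq 2.17 and 2.20. Exonic bases per gene in the deposited tables gave CPM per kb. Of the columns of counts 0 were left out, and 18 of 24594 genes had no symbol.

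R 4.3.3 and edgeR 4.0.16 were used. The filter asked for 1 CPM in 2 or more libraries. After TMM scaling (factors from 0.946 to 1.04 in the sorted series and from 0.983 to 1.01 in the arches), a group-means model per table was tested by the two-sided quasi-likelihood test, with Benjamini-Hochberg adjustment over all genes tested. The 95% intervals use the t quantile at the degrees of freedom of each test. Ratios and shares have no test and are given with the spread of the libraries. For a group without counts the floor was 3 counts per library. Alternatives were limma 3.58.1, DESeq2 1.42.0, other scalings and filters, a replicate block and leaving out each library. The procedure was checked on simulated data.

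The 9 genes, the gene lists and the rules were chosen with earlier results of these data known. Named beside the 9 genes were the 2 closest by pattern, the largest called rise and fall of each list between stages, list genes called between arches or genotypes, and Hoxa2. Other list genes named were chosen after their values were seen.

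Libraries of a group were checked for copies, with a chi-square of 6.68 to 44.2 per degree of freedom, above sampling noise. To check the pairing, deviations from the group mean were correlated between same-numbered PA2 and PA3 libraries, at 0.382, 0.230 and 0.248 (WT) and at 0.213, 0.284 and 0.342 (HIRE1del/del). The pairing was taken from these correlations and not from the labels. Some libraries that cannot share embryos reached similar values. These were 0.293 for PA2 of WT 1 with PA3 of HIRE1del/del 2 and 0.317 for sorted E10.5 1 with sorted E12.5 2. The correlations thus do not establish a shared pool. Separate litters are not stated, so p-values measure only the spread between these libraries.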

Additional observations from a re-analysis of the deposited data

How the results depend on the processing

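Over the 72 results of single genes and 1053 alternatives to them, 1014 kept direction and side of the threshold, 5 lost a call, 15 gained one and 19 changed sign. This tally leaves out the setting that also required a log2 fold change of at least 1, which is given below. Of 40 calls 38 held under every alternative in the tally, the exceptions being Id3 between E10.5 and E14.5 and Twist1 between the arches of HIRE1del/del. The cause was not tested except where fewer libraries or genes were used by construction.

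When a log2 fold change of at least 1 was also required, fewer of the 9 genes were called. Counts fell to 2, 0 and 4 in the stage comparisons (E12.5 against E10.5, E14.5 against E12.5, E14.5 against E10.5), beside 2897, 2647 and 5282 of all 13438 genes. Between arches they fell to 2 in WT and 1 in HIRE1del/del, beside 1199 and 1178 of all 14383 genes. For HIRE1del/del against WT the count of 0 became 2 in PA2 with DESeq2 (Tcf12, Id2) and 2 with a replicate block (Id2, Id4), and 1 in PA3 with no filter, with DESeq2 or with the block (Twist1). Leaving out each library in turn gave 0 in PA2, 0 to 1 in PA3, 0 for the difference between arches, 8 between arches in WT, 8 to 9 in HIRE1del/del, and 8, 7 to 8 and 7 to 8 between stages. Without length, the log2 ratio of Id to E protein level differed by -0.29 between E12.5 and E10.5 (0.17 per kb) and by 0.86 between PA3 and PA2 of WT (0.76 per kb). For all genes, calls in PA2 were 63, 162 with DESeq2 and 105 with the block, those in PA3 were 31, 94 and 54 (8 to 28 without a library), and those for the difference between arches 7, 29 and 26 (3 to 12).

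Changes of sign touched only values that were not called. Id1 between E12.5 and E14.5 was -0.054 with total counts only and -0.12 to 0.25 without a library. That scaling moved the median of all genes to -0.13 there and the share of higher among called genes from 49.7% to 38.5%. Tcf4 in the difference between arches was -0.00037 with limma-voom. Without a library the ranges were -0.045 to 0.12 for Id3 in PA2, -0.11 to 0.00088 for Tcf4, -0.12 to 0.048 for Id1, -0.098 to 0.021 for Id3 and -0.15 to 0.078 for Id4 in PA3 (HIRE1del/del against WT), and -0.067 to 0.057 for Tcf4, -0.0088 to 0.15 for Id3 and -0.17 to 0.0098 for Id1 in the difference between arches.

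The replicate block was tried although the numbers do not pair the genotypes or the stages, whose same-number correlations were 0.140, -0.136 and 0.236 (PA2) and 0.00152, -0.0972 and 0.131 (PA3) between genotypes. It changed no call of the 9 genes between stages apart from adding Twist2 between E10.5 and E14.5 (9 called), and none between the arches. Id4, at 97 to 814 counts per library, has the least depth of the 9 genes.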
